A study of Mus musculus with 6 samples.

Results

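Sesn1, Sesn2, Phlda3, Trp53inp1, Plk2, Zmat3, Eda2r, Fam212b, Btg2 and Gdf15 are transcripts that p53 raises in stressed cells. They were listed by symbol, and 9 of the 10 were measured among 11644 genes; Gdf15 was not analysed here. The list was drawn up with the difference between EPZ015666 and DMSO in these same libraries known. Their own levels and fold changes below are therefore a description and carry no test. The cells were MLL-ENL/NrasG12D cells, a mouse MLL-fusion leukemia line grown in RPMI-1640 with serum, and all libraries share the MLL-ENL fusion and the mutant Nras. The 3 DMSO libraries came from cells given solvent for 72 h, and the 3 inhibitor libraries from cells given 5 µM EPZ015666, a small molecule that blocks the arginine methyltransferase PRMT5, for 72 h. Both groups were dosed again on day 2. The series text calls the replicates independent without saying what was repeated, so p-values measure the spread between these libraries, which may be technical. The sources used here do not give the state of the Trp53 gene of the line or whether it is a single clone. The data hold no measure of p53 protein.

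p53 is a transcription factor that is kept low by the ubiquitin ligase Mdm2 and accumulates after DNA damage and other stress. It binds DNA as a tetramer at paired 10-base units and raises genes that stop the cell cycle, repair DNA, alter metabolism or start apoptosis. The genes described here act at several points of this response: some slow growth signalling or cell division, some act on RNA or the cytoskeleton, and some, such as Trp53inp1, Phlda3 and Eda2r, are also tied to apoptosis. Acute leukemias with MLL fusions often keep an intact p53 gene, and PRMT5 methylates p53 as well as splicing and histone proteins.

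The libraries held 11335948 to 19197912 reads assigned to genes. Over all genes, 2753 rose (23.6%) and 2665 fell (22.9%) at a limma adjusted p under 0.05, with a median log2 fold change of 0.00. Prmt5 itself stood at 2784 ± 366 normalized counts (reads divided by the size factor of the library; mean ± SD of 3 libraries here and below) in DMSO and at 2508 ± 373 under EPZ015666 (limma adjusted p = 0.316). Its transcript does not show whether the enzyme was blocked. Of 12 markers of leukemic myeloid progenitors, 11 were measured, with summed levels of 37760 to 42751 in DMSO and 37720 to 41261 with the inhibitor. These sums hold opposite moves: 4 of the 11 rose, Cd34 among them (8846 to 13430.1), and 3 fell. Among the falls were Flt3 (8060 to 3693) and Mpo (847 to 342). The Mpo groups overlapped, with 1438, 371 and 731 in DMSO libraries 1, 2 and 3 and 408, 292 and 327 with the inhibitor. Of 10 monocyte and macrophage markers 9 were measured, and their sum ran from 14088 to 16637 in DMSO and from 24295 to 25744 with the inhibitor; 7 rose and Mrc1 fell. Sums of neutrophil markers (4 of 10 measured) went from 189 to 251 up to 285 to 362, and of megakaryocyte markers (3 of 8, mostly Vwf) from 96.2 to 165 up to 276 to 477. In the neutrophil sum Mmp8 rose (57.1 to 154), as did S100a8 (5.54 to 22.0) and S100a9 (7.71 to 21.9) at low levels. Cxcr2 had 150 in DMSO and 118 with the inhibitor (limma adjusted p = 0.127). The part of these shifts in the results was not tested. No erythroid marker of 8 was measured, and markers of mast (1 of 7), T and NK (2 of 9), B (1 of 7) and stromal cells (1 of 8) summed to at most 37.8 in any library. Of 7 endothelial markers 3 were measured, nearly all of it Pecam1, which leukocytes also carry, at 3035 to 3674 and 3618 to 4049. In bulk RNA, more cells that carry a transcript and more transcript per cell cannot be told apart.

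The promoters of 4 of the genes are shown because a p53 pair or a cyclic AMP response element lay just before a start; sequence was not used to pick the genes. RefSeq windows on GRCm38.p6 (250 bases before to 50 after a start) were given for 8 of the 10 genes, Gdf15 included; Trp53inp1 and Zmat3 had none. A pair of p53 consensus units with a spacer of 0 to 13 bases and at most 2 mismatches lay in the windows of 2 of the 8, Fam212b and Sesn1. Of 8809 genes in the table with a window, 9.63% held such a pair, and 16 of 72 other p53 targets did. With at most 3 mismatches the same 2 of the 8 matched, against 43.3% of the table's genes and 41 of 72 other p53 targets. The consensus unit is the same on both strands, and an exact unit on its own was likewise in Fam212b and Sesn1 and in 8.04% of the table's genes. Both genes have more than 1 window, and a gene counted once for a match in any of its windows. For both genes the match lay before the downstream one of their annotated starts, inside an intron of the longer transcript and outside any exon. The capitals mark the paired units, with 1 mismatch and a 12-base spacer in Fam212b and 2 mismatches and a 3-base spacer in Sesn1. The stretches are chr3:105705208-105705457 for Fam212b and chr10:41887189-41887438 for Sesn1, both on the plus strand and ending at the base before the start.
Fam212b: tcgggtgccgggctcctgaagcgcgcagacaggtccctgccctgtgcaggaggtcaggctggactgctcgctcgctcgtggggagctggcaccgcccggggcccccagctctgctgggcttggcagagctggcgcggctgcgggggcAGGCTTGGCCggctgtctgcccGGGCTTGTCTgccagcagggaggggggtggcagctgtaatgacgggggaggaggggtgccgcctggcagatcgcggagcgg
Sesn1: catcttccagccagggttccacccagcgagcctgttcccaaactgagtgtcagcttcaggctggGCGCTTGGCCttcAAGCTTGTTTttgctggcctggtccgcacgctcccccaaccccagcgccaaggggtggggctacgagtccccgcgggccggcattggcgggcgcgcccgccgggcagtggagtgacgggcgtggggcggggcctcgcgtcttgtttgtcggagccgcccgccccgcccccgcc

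The cyclic AMP response element TGACGTCA, which reads the same on both strands, lay in the windows of Btg2 and Plk2 and in 3.75% of the genes in the table with a window. It sat 166 bases before the start of Btg2 and 62 bases before that of Plk2, counted to its first base. The capitals mark it in chr1:134079156-134079405 (minus strand, Btg2) and chr13:110394794-110395043 (plus strand, Plk2). The amino acid response element TGATGNAAN, searched on both strands, was in none of the 8 genes' windows and in 2.89% of the table's. A match is a string of letters and not evidence of binding, and a window of this length leaves out most of each gene.
Btg2: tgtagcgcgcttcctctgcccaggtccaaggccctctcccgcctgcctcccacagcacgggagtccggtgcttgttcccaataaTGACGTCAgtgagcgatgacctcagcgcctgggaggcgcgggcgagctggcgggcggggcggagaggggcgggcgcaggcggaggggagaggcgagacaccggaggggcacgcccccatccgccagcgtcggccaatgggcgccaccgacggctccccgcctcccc
Plk2: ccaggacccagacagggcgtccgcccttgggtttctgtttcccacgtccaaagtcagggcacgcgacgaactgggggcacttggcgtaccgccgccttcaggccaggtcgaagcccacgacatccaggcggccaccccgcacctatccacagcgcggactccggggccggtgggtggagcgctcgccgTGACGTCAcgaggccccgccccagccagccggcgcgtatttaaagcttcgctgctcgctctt

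The sestrins restrain mTORC1, the kinase complex that drives protein synthesis, by binding the GATOR2 complex when leucine is scarce. Sesn1 (chromosome 10, 41809935 to 41908424, plus strand) had 2518, 2055 and 2239.5 normalized counts in DMSO libraries 1, 2 and 3, and 3409, 3499 and 3149 in inhibitor libraries 1, 2 and 3. The groups did not overlap, and the mean went from 2271 ± 233 to 3352 ± 182, a ratio of 1.48 (log2 fold change 0.57 ± 0.09 SE). Sesn2 (chromosome 4, 132492032 to 132510501, minus strand) had 576, 965 and 588 in DMSO and 1162, 1075 and 1113 with the inhibitor. DMSO library 2 lay close to the inhibitor libraries for Sesn2: the lowest of these was 1.11 times that library. The mean of Sesn2 went from 709.7 ± 222 to 1117 ± 43.7, a ratio of 1.57, or 1.92 without DMSO library 2 (log2 fold change 0.70 ± 0.16 SE with all libraries). The sestrins showed the smallest ratios of the 9 genes, at the highest DMSO levels.

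Phlda3 (chromosome 1, 135766119 to 135769136, plus strand) encodes a small pleckstrin homology protein that keeps the growth kinase AKT off the membrane. It had 43.2, 41.2 and 46.1 normalized counts in DMSO and 709, 604 and 625 with the inhibitor. The DMSO libraries lay within 5 counts of each other, and the lowest inhibitor library stood 13.1 times above the highest of them. The ratio of means was 14.8, from 43.5 ± 2.50 to 646 ± 55.4 (log2 fold change 3.86 ± 0.13 SE).

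Trp53inp1 (chromosome 4, 11156431 to 11174379, plus strand) encodes a stress-induced protein that takes part in p53 activation and in autophagy. It stood at 659, 636 and 595 normalized counts in DMSO and at 2824, 3279 and 3077 with the inhibitor. The spread was small in both groups, with coefficients of variation of 5.13% and 7.44%, and the mean went from 629.96 ± 32.3 to 3060.1 ± 228, a ratio of 4.86 (log2 fold change 2.28 ± 0.09 SE). Zmat3 (chromosome 3, 32334792 to 32366014, minus strand), a zinc finger protein that binds RNA and affects splicing and mRNA stability, had 173, 172 and 213 in DMSO and 757, 801 and 678 with the inhibitor. Its groups were well apart, from 186 ± 23.5 to 745 ± 62.4, a ratio of 4.01 (log2 fold change 2.00 ± 0.12 SE).

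Plk2, Btg2 and Fam212b bear on cell division and cell shape. Plk2 (chromosome 13, 110395046 to 110400844, plus strand), a polo-like kinase that acts in G1 and at the centrioles, had 21.2, 35.5 and 28.5 normalized counts in DMSO and 373, 432 and 436 with the inhibitor. Every inhibitor library was far above every DMSO library, whose level rests on 99 reads in all. The ratio of means was 14.6, from 28.4 ± 7.16 to 414 ± 35.3 (log2 fold change 3.84 ± 0.19 SE). Fam212b (chromosome 3, 105704599 to 105720842, plus strand), now named Inka2, encodes an inhibitor of the actin-regulating kinase PAK4. It had 32.6, 37.1 and 42.2 in DMSO and 393, 428 and 479.96 with the inhibitor. The DMSO libraries lay close together and far below the others. The mean went from 37.3 ± 4.81 to 434 ± 43.6, a ratio of 11.6 (log2 fold change 3.51 ± 0.15 SE). Btg2 (chromosome 1, 134075170 to 134079120, minus strand) encodes an antiproliferative protein that brings mRNAs to the CCR4-NOT deadenylase. Its values were 238, 366 and 267 in DMSO and 521, 569 and 575 with the inhibitor. The groups of Btg2 did not overlap although DMSO library 2 was again the highest of its group. The mean went from 290.3 ± 66.9 to 555 ± 29.5, a ratio of 1.91, or 2.20 without that library (log2 fold change 0.96 ± 0.14 SE with all libraries).

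Eda2r (chromosome X, 97333840 to 97377216, minus strand) encodes a TNF receptor family member that binds the A2 form of ectodysplasin. It was almost silent in DMSO, with 5, 4 and 1 reads in libraries 1, 2 and 3, or 4.08, 3.23 and 0.982 normalized counts. With the inhibitor it stood at 74.6, 65.7 and 69.9. The ratio of means was 25.4, and it ran from 19.2 to 33.3 when each library was left out in turn. On the log2 scale the change was 4.35 ± 0.38 (SE) with a pseudocount of 1 and 3.29 with a pseudocount of 5. The table lists genes only from 10 reads in the highest library upward, and Eda2r passed that minimum through the inhibitor libraries alone.

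**Figure D1:**
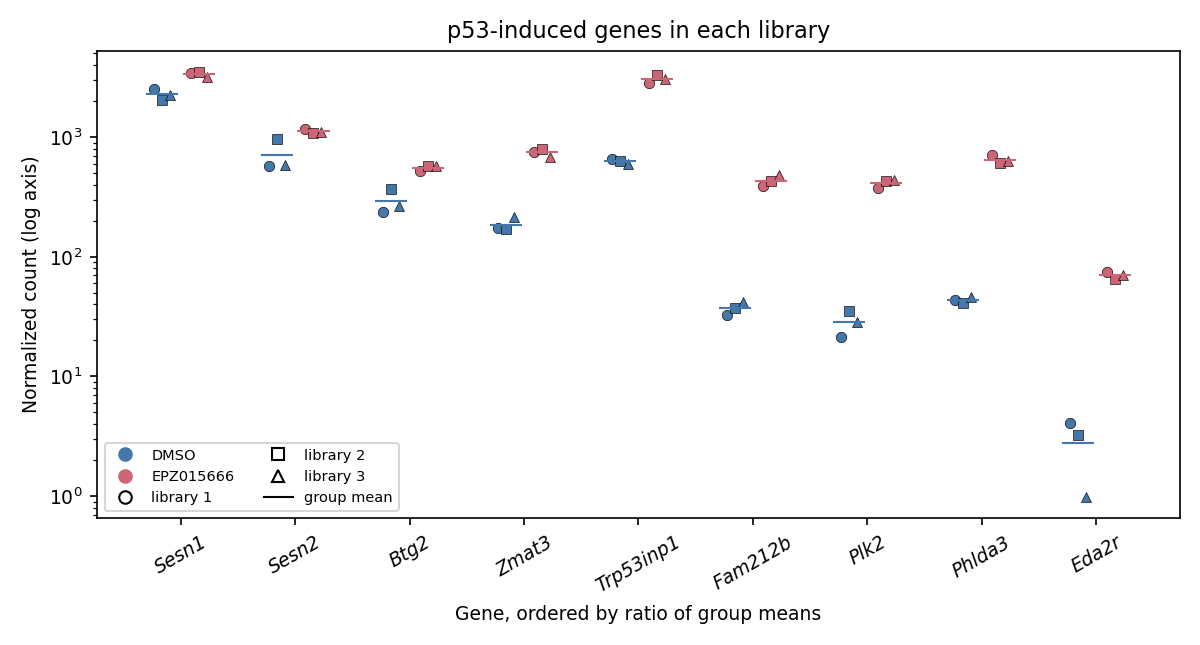
Normalized counts (log axis) of the 9 genes in each library, ordered by the ratio of group means, with DMSO in blue, EPZ015666 in red, a marker shape for each library number and a line at each group mean (n = 3 per group). The inhibitor libraries lie above the DMSO libraries for every gene, by the least for Sesn2, where DMSO library 2 reaches 965.

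All 9 genes were higher in every inhibitor library than in every DMSO library, against 28.2% of all genes. All 9 were past the limma threshold in the upward direction, against 23.6% of all genes (46.5% in either direction). A ratio of at least 2 was seen in 6, against 7.78%, and of at least 10 in 4, against 1.02%. The genes were picked on this contrast, so these counts describe the choice and support nothing. No exon of the 9 genes overlaps an exon of another gene in GENCODE M21, the annotation of the mm10 build used here for positions and lengths. Coefficients of variation were larger in DMSO than with the inhibitor for 7 of the 9 genes, with Phlda3 and Trp53inp1 as the exceptions. The same share over all genes was not computed, so this count is not read as a trait of the 9. The coefficients ran from 5.13% (Trp53inp1) to 57.9% (Eda2r, on 10 reads) in DMSO and from 3.91% (Sesn2) to 10.1% (Fam212b) with the inhibitor.

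Levels were compared between genes as normalized counts per kb of annotated exon. In DMSO, Sesn1 was the most abundant at 570.3 ± 58.5 per kb (SD, n = 3), followed by Sesn2 at 204 ± 63.8, Btg2 at 106 ± 24.4 and Trp53inp1 at 97.3 ± 4.99. Phlda3 (27.9 ± 1.60), Zmat3 (16.3 ± 2.05), Fam212b (7.81 ± 1.01), Plk2 (6.32 ± 1.59) and Eda2r (0.469 ± 0.271) came after. Among neighbours in this order, the ranges of Btg2 and Trp53inp1 overlapped, as did those of Fam212b and Plk2. With the inhibitor, Trp53inp1 (473 ± 35.2) and Phlda3 (414 ± 35.6) stood above Sesn2 (321 ± 12.6) and Btg2 (202 ± 10.8), behind Sesn1 at 842 ± 45.6. The ranges of Trp53inp1 and Phlda3 overlapped, and so did those of Plk2 (92.1 ± 7.87) and Fam212b (90.7 ± 9.13); Zmat3 (65.2 ± 5.46) and Eda2r (11.9 ± 0.751) were lowest. Phlda3 and Trp53inp1 gained the most transcript per length, 387 and 375 per kb, and Sesn1 gained 272 with a ratio of only 1.48. Phlda3 moved from the 22.6 to the 82.3 percentile of all genes by level per kb and Trp53inp1 from 44.9 to 84.5. The lengths join all annotated exons of a gene, so a gene whose long forms are not used in these cells is understated.

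**Figure D2:**
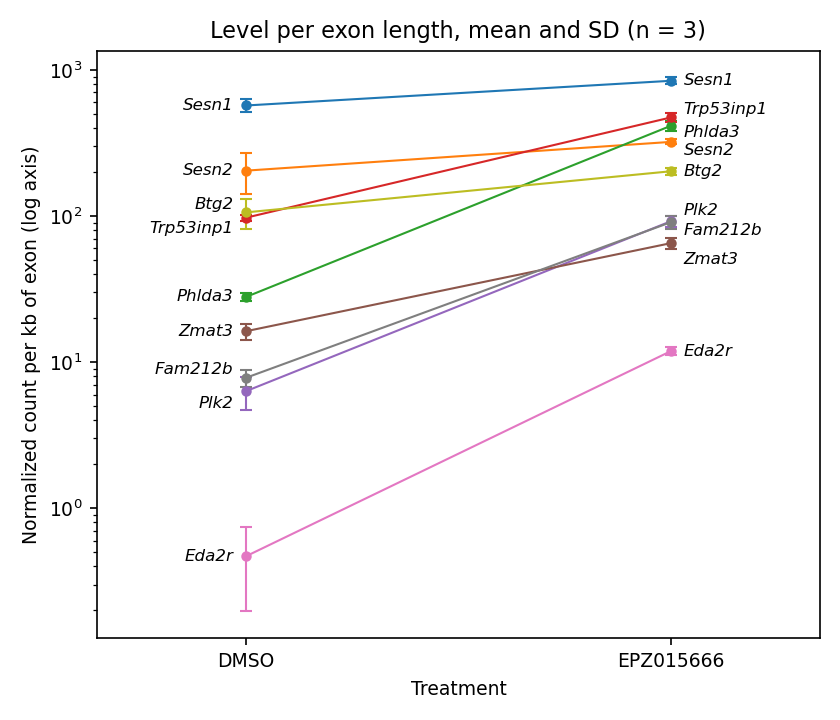
Mean level of each gene in normalized counts per kb of exon (log axis) in DMSO and with EPZ015666, with error bars of 1 SD (n = 3 per group). The lines of Phlda3 and Trp53inp1 cross those of Sesn2 and Btg2, and Sesn1 is highest in both groups (570.3 and 842 per kb).

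The DMSO libraries are part of the contrast on which the genes were picked, so the spread among them is a description too. This spread differed between the genes. Sesn2 stood in DMSO library 2 at 1.66 times the mean of DMSO libraries 1 and 3, Btg2 at 1.45 times and Plk2 at 1.43 times. On the log2 scale these deviations were 0.73, 0.53 and 0.51, and 6.32%, 10.2% and 10.8% of all genes deviated by more in either direction. Fam212b (0.00), Trp53inp1 (0.02), Phlda3 (-0.11), Zmat3 (-0.16) and Sesn1 (-0.21) were level or lower in that library. Plk2 lay further from the others in DMSO library 1, at -0.56, and had 26, 44 and 29 reads in DMSO libraries 1, 2 and 3. Eda2r deviated the most, by 0.81, 0.41 and -1.23 in DMSO libraries 1, 2 and 3, on 5, 4 and 1 reads.

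Sesn2 is also a textbook target of ATF4, the transcription factor of the integrated stress response, and Btg2 and Plk2 are also immediate early genes, which growth factors raise rapidly. In DMSO library 2, 29 of 32 genes of the integrated stress response lay above the mean of the other DMSO libraries, with a median log2 deviation of 0.57. Trib3, a pseudokinase induced by ATF4, stood at 1376 in that library against 126 and 218, Ddit3, the stress factor CHOP, at 1378 against 171 and 237, Nupr1 at 249 against 37.5 and 44.2, and Ppp1r15a, which restarts translation, at 718 against 223 and 209. Immediate early genes were higher in that library in 25 of 25 cases, with a median of 0.76. Of 82 other p53 targets, Ier3 and Ier5 counted again, 38 were higher and 44 lower in that library, with a median of -0.04. Some of them stood as high there as Btg2 and Plk2: Cdkn1a had 773 against 508 and 549, and Rrm2b, a ribonucleotide reductase subunit named after its value was seen, 519.9 against 227 and 218. The median over all genes was -0.01. The part of these sets in the Sesn2, Btg2 and Plk2 values of that library was not tested. In the inhibitor libraries no deviation of the 9 genes went past 0.23 in size.

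**Figure D3:**
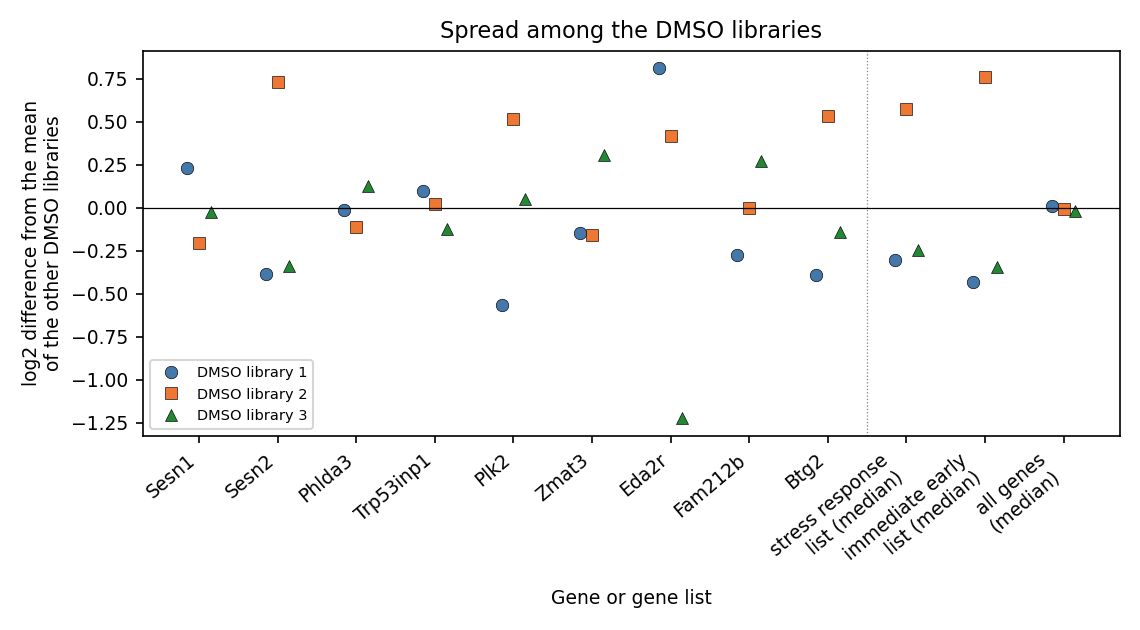
For each gene, and as the median over 3 sets of genes, the log2 difference of each DMSO library from the mean of the other DMSO libraries (circles library 1, squares library 2, triangles library 3). Squares stand high for Sesn2 (0.73), Btg2 (0.53), Plk2 (0.51) and the stress and immediate early lists (0.57 and 0.76), and near 0 for Fam212b and Trp53inp1. The circle of Plk2 lies further from 0 than its square, at -0.56. Eda2r, on 10 DMSO reads, lies furthest from 0, at -1.23 in library 3 and 0.81 in library 1.

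Relatives of the same gene families were not used in the choice, and their changes were tested in the limma fit over all genes. This list and those below were written with earlier results of these data known. Of 17 listed relatives 14 were measured: 6 rose, 3 fell and 5 did not pass, with a median log2 fold change of 0.07. The shares were 42.9% higher and 21.4% lower, against 23.6% and 22.9% of all genes, so the share that fell was close to that of all genes. The third sestrin gene, Sesn3, had 133 ± 14.3 normalized counts in DMSO and 145 ± 19.3 under EPZ015666 (limma adjusted p = 0.517). Trp53inp2, an autophagy relative of Trp53inp1, rose 5.34-fold, from 23.4 ± 2.75 to 125 ± 18.6 (limma adjusted p = 3.21e-06). Phlda1 rose from 8.83 ± 3.70 to 36.1 ± 8.34 (limma adjusted p = 7.78e-04).

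The polo-like kinases were split. Plk3, a stress-responsive relative of Plk2, rose from 121 ± 15.6 to 213 ± 27.6 normalized counts (limma adjusted p = 9.92e-04). Plk1, the mitotic kinase, fell from 1146 ± 116 to 851 ± 145 (limma adjusted p = 0.0108), and Plk4, which starts centriole duplication, from 1599 ± 3.07 to 1249.9 ± 71.3 (limma adjusted p = 0.00285). The call on Plk1 was lost without inhibitor library 2 (limma adjusted p = 0.0599). Per kb of exon, Plk2 was the lowest of these kinases in DMSO (6.32, against 47.9 for Plk3, 233 for Plk4 and 521 for Plk1). With the inhibitor it stood at 92.1 and Plk3 at 84.1.

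In the BTG/TOB family, Btg1 rose 2.06-fold, from 1086 ± 104 to 2241 ± 106 normalized counts (limma adjusted p = 3.85e-06), and Tob1 2.41-fold, from 81.5, 73.5 and 62.8 to 173, 190.2 and 162 (limma adjusted p = 5.09e-05). Tob2 had 911 ± 68.0 and 779.9 ± 61.7 (limma adjusted p = 0.0669). It passed as a fall by edgeR (adjusted p = 0.0453), on log2 CPM with TMM factors (limma adjusted p = 0.0458), with a replicate block (limma adjusted p = 0.0342) and without DMSO library 2 (0.0378) or inhibitor library 1 (0.0318). Among the ZMAT genes, Zmat5, of the minor spliceosome, rose from 239 ± 17.1 to 319.7 ± 24.4 (limma adjusted p = 0.00883). Zmat1 (23.1 and 20.7) and Zmat2 (1093 and 1113) did not pass. Fam212a, the relative of Fam212b, had 660, 693 and 611 in DMSO and 575, 491 and 621 under EPZ015666 (limma adjusted p = 0.100), and passed as a fall without inhibitor library 3 (limma adjusted p = 0.0449). The TNF receptor family gene Relt fell from 548 ± 13.9 to 377 ± 52.2 (limma adjusted p = 0.00170).

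**Figure D4:**
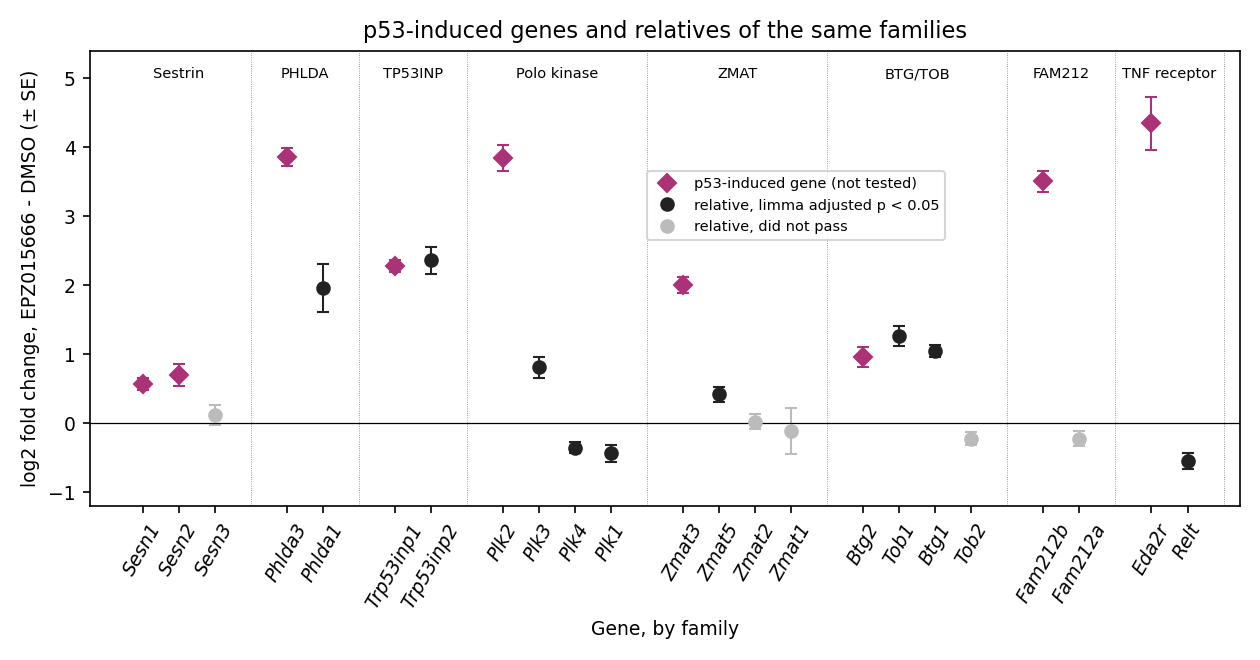
Log2 fold change (EPZ015666 minus DMSO, ± SE) of the p53-induced genes (diamonds, described without a test) and of 14 relatives (circles, dark where the limma adjusted p was under 0.05), by family. Trp53inp2, Phlda1, Btg1 and Tob1 lie above 1, Sesn3 and Fam212a near 0, and Plk1 and Plk4 below 0.

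The Trp53 transcript stood at 1639 ± 71.7 normalized counts in DMSO and 1643 ± 57.2 under EPZ015666 (limma adjusted p = 0.969). Of 15 genes for p53 and its regulators, 5 rose, 2 fell and 8 did not pass, with a median log2 fold change of 0.02 (33.3% higher and 13.3% lower, against 23.6% and 22.9% of all genes). Mdm2, which degrades p53, rose from 1595 ± 245 to 5962 ± 264 (limma adjusted p = 1.56e-07), and Ccng1, which works with Mdm2, from 3659 ± 294 to 13498 ± 903 (limma adjusted p = 7.14e-08). Cdkn2a, whose Arf product blocks Mdm2, rose from 239 ± 14.1 to 396 ± 24.9 (limma adjusted p = 1.91e-04), and the damage kinase Atm fell from 2134 ± 374 to 1508 ± 90.8 (limma adjusted p = 0.00412). Rises numbered 3 without DMSO library 1 or 3 or inhibitor library 3.

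Other genes from catalogues of p53 targets were mixed. Of 93 listed genes outside the 10, 82 were measured: 34 rose (41.5%), 13 fell (15.9%) and 35 did not pass, with a median log2 fold change of 0.16, against 23.6% and 22.9% over all genes. These targets share no gene with the 9, but their lists too were written with earlier results of these data known. Cell cycle targets rose in 5 of 10 cases, among them Cdkn1a, the p21 inhibitor of cyclin-dependent kinases (610 ± 143 to 2999 ± 201, limma adjusted p = 2.30e-07), and Gtse1, which binds p53 in G2 (907 ± 100.4 to 2043 ± 166, limma adjusted p = 3.84e-06). The 1 fall, of Sfn, was lost without DMSO library 3 or inhibitor library 2. Apoptosis targets rose in 7 of 15 cases and fell in 1: Bax rose from 1442 ± 22.0 to 3816 ± 122 (limma adjusted p = 1.15e-07), Ei24 from 1177 ± 100.1 to 1922 ± 102 and Pidd1 from 337 ± 44.9 to 621 ± 159, while Ckap2, a microtubule protein, fell from 828 ± 72.3 to 547 ± 67.5.

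Of 10 DNA repair targets, 3 rose and 3 fell, shares close to the 23.6% and 22.9% of all genes. The nuclease gene Ercc5 rose from 298 ± 14.7 to 817 ± 24.8 normalized counts (limma adjusted p = 3.52e-07) and the bypass polymerase Polk from 389.8 ± 32.5 to 899 ± 40.8 (limma adjusted p = 2.12e-06). Fancc, of the Fanconi anemia pathway, fell from 362 ± 19.1 to 187 ± 19.8 (limma adjusted p = 5.99e-05). Metabolic and lysosomal targets rose in 4 of 15 cases (26.7%, likewise close to all genes) and fell in 2, or 4 without inhibitor library 1. Ddit4, an mTORC1 inhibitor of the same broad function as the sestrins, rose from 288 ± 47.5 to 776 ± 52.2 (limma adjusted p = 3.54e-06), Gpx1, a peroxidase, from 4522 ± 715 to 8038 ± 296, and Aldh4a1, of proline breakdown, from 394 ± 42.1 to 555 ± 9.50. Fdxr, a mitochondrial reductase, fell from 606 ± 19.2 to 177 ± 15.9 (limma adjusted p = 2.58e-07). Of 32 further targets, 15 rose and 6 fell; Slc19a2, a thiamine transporter (363 to 864), Susd6 (1185 to 2228) and Ier3 (72.8 to 237) were among the rises, and Cyfip2 (4239 to 2562) among the falls.

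**Figure D5:**
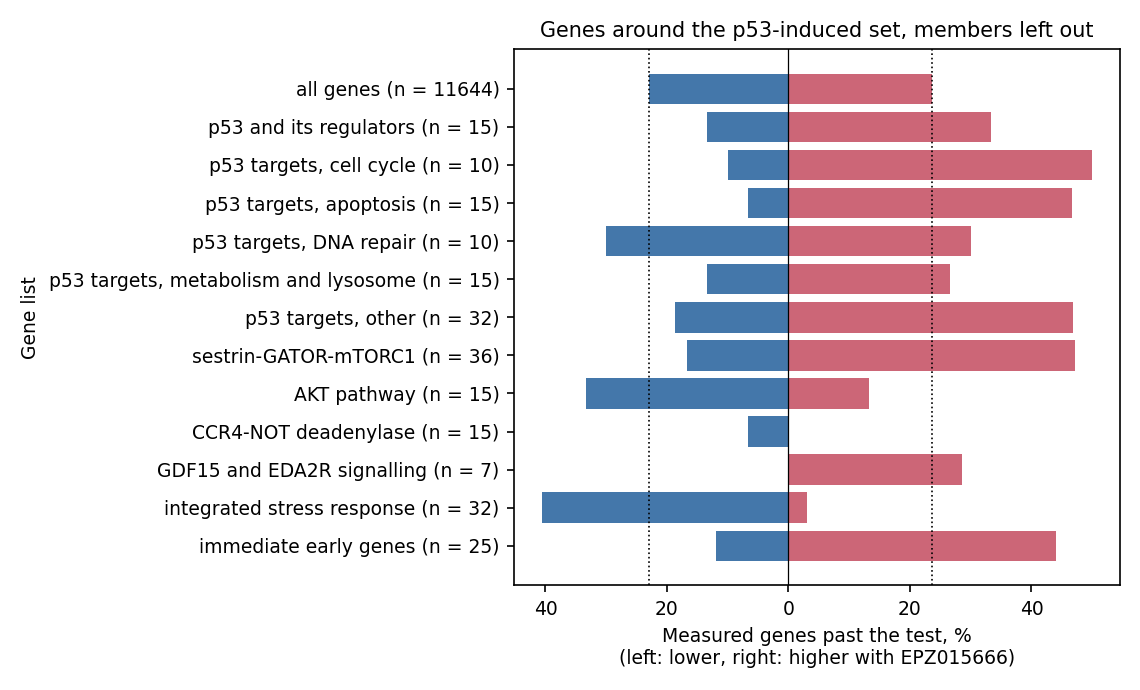
Share of the measured genes of each list past the limma threshold, lower with EPZ015666 to the left and higher to the right, with all 11644 genes at the top and as dotted lines (22.9% and 23.6%). The 9 p53-induced genes are left out; cell cycle (5 of 10), further (46.9%) and apoptosis (46.7%) targets show the largest upward shares among the p53 lists, and integrated stress response genes the widest downward share (40.6%).

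The partners through which the sestrins act gave calls in both directions. Of 38 listed genes of the amino acid, mTORC1 and AMPK machinery, 36 were measured: 17 rose, 6 fell and 13 did not pass, with a median log2 fold change of 0.19. That is 47.2% higher and 16.7% lower, against 23.6% and 22.9% of all genes. Rragc, a GTPase that brings mTORC1 to the lysosome, rose from 1453 ± 184 to 2698 ± 252 normalized counts (limma adjusted p = 4.24e-05), Rragd from 6.89 ± 0.440 to 36.3 ± 11.2 (limma adjusted p = 1.95e-04), and the lysosomal anchor Lamtor4 from 892 ± 107 to 1330.1 ± 16.5 (limma adjusted p = 4.52e-04). Deptor, a subunit that inhibits mTOR, fell from 38.8 ± 2.89 to 9.22 ± 0.905 (limma adjusted p = 1.34e-04). Mtor itself, named after its value was seen, fell from 2194 ± 228 to 1529 ± 56.9 (limma adjusted p = 7.22e-04). Rises numbered 11 without inhibitor library 2.

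Of 12 genes around Gdf15 and Eda2r signalling, 7 were measured; 2 rose by limma (28.6%, against 23.6% of all genes) and 5 did not pass. Furin, a protease that matures TGF-beta family ligands, rose from 1302 ± 44.4 to 2590.2 ± 83.7 normalized counts (limma adjusted p = 1.87e-06), and the NF-kB subunit gene Nfkb2 from 868 ± 345 to 1477 ± 58.9 (limma adjusted p = 0.00422). Relb had 264 ± 218 and 403 ± 26.4 (limma adjusted p = 0.0733). It passed as a rise with a replicate block (limma adjusted p = 0.0184) and without DMSO library 2, where it was high (limma adjusted p = 6.92e-07).

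The stress response and immediate early sets differed in their direction. Of 32 integrated stress response genes, 13 fell and 1 rose (Cebpb), with a median log2 fold change of -0.37. That is 40.6% lower and 3.12% higher, against 22.9% and 23.6% of all genes. The other 18 did not pass. Among them were Atf4, named after its value was seen, Ddit3 and Ppp1r15a (limma adjusted p = 0.984, 0.962 and 0.984). Pycr1, of proline synthesis, fell from 304 ± 22.6 to 50.7 ± 14.1 normalized counts (limma adjusted p = 1.46e-06), Gpt2, an alanine aminotransferase, from 775 ± 222 to 249 ± 7.48, Shmt2, of serine breakdown, from 6585 ± 512 to 3426 ± 311, and Slc7a1, an arginine transporter, from 4818 ± 549 to 2734 ± 151. DMSO library 2, in which 29 of the 32 stood above the mean of the other DMSO libraries, raises their DMSO means. Without that library 5 rose, and falls ran from 10 to 17 when each library was left out in turn. Of 25 immediate early genes, 11 rose (44.0%) and 3 fell (12.0%), with a median of 0.66; without DMSO library 2, 17 rose. Klf2 (51.6 ± 10.0 to 145 ± 6.26, limma adjusted p = 4.26e-05) and Jun (787 ± 205 to 1527 ± 21.9, limma adjusted p = 1.81e-04) rose, and Myc fell (4707 ± 116 to 2246 ± 224, limma adjusted p = 3.06e-06).

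The genes whose pattern was most like that of the 9 were sought among 9092 others with a mean of at least 100 normalized counts. Likeness was Pearson's r on the log2 scale, over the 6 libraries, to the mean of the 9 genes after each was scaled to the same mean and SD. Emp1, a membrane protein (54.0 to 492), Adam8, a metalloprotease (493 to 7593), Sulf2, a sulfatase (5.96 to 196), Spp1, osteopontin (758 to 11928), and Tnip3 (32.3 to 1068) came first, with r of 0.9996 for Emp1 (values are group means in DMSO and under EPZ015666). The minimum of 100 was on the mean over all 6 libraries, so Emp1, Sulf2 and Tnip3 passed it through the inhibitor libraries alone. With 6 libraries in 2 groups any strong, tight difference gives a high r, and 142 genes were over 0.99.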

How the data were processed

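Poly-A RNA from 3 DMSO and 3 EPZ015666 libraries was made into stranded libraries, per the labels' protocols. Sample titles gave the groups and replicate numbers. Tools in the submitters' processing notes, with no role stated, are DESeq 1.16.0, HTSeq 0.6.0, TopHat2 2.0.10 and CASAVA 1.8.2, and the build is mm10. The sources used here give neither annotation nor strand setting. The authors deposited a normalized signal per gene, which is the read number over a size factor per library. All values (100%) were whole multiples of 1 step per library within a tolerance of 1e-06, so reads were recovered. No pair of libraries within a group agreed within sampling noise (chi-square per degree of freedom 9.43 to 20.7).

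Groups were compared over 11644 genes in R 4.3.3 by limma-trend (version 3.58.1), after log2(normalized count + 1). Tests were two-sided; a gene passed at a Benjamini-Hochberg adjusted p under 0.05. Fold changes on that scale understate low genes. The fit was tested on simulated data. edgeR 4.0.16 and DESeq2 1.42.0 on the recovered reads, other pseudocounts, log2 CPM with TMM factors, a minimum of 5 CPM in 3 libraries, a replicate block and leaving out each library were alternatives. Members and lists were chosen with earlier results of these data known. Named genes were all members, Prmt5, Trp53, Cdkn1a, Mdm2, every measured relative, up to 4 genes with the smallest adjusted p in each list, the 5 genes most like the members, and the 4 stress response genes that deviated most in DMSO library 2; Sfn, Cebpb, Mtor and others outside this rule were named after their values were seen. Some genes that this rule names are not reported here. Some lists share genes, among them Btg1, Plk3, Ier3, Ier5, Tsc2, Prkab1 and Sesn3.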

Additional observations from a re-analysis of the deposited data

How the results depend on the processing

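The 9 p53-induced genes kept their upward direction under every alternative that could give a value; the minimum of 5 CPM in 3 libraries removed Eda2r. These genes were picked on this contrast and their groups do not overlap, so the kept direction describes the choice and supports nothing. Their median log2 fold change was 2.28, and 2.14 to 2.33 under the alternatives. Log2 CPM with TMM factors, which changes unit, scaling and pseudocount together, gave 2.21 for Eda2r, 3.28 for Plk2, 3.46 for Phlda3 and 3.07 for Fam212b, and a pseudocount of 5 counts lowered Phlda3 to 3.74. Over all genes edgeR called 2593 higher and 2819 lower, and DESeq2 2552 and 2447. With the replicate block, 3016 genes were higher and 2916 lower; in the CCR4-NOT list 1 was then higher and 2 lower, and in the stress response list 2 were higher. Same-numbered libraries deviated together with correlations of 0.17, 0.05 and 0.21, and differently numbered ones with -0.16 to -0.0028. Each library thus correlated best with its own number. The main fit held no replicate block, and whether the numbers pair the libraries was not settled. Leaving out each library in turn gave these ranges of calls: regulators higher 3 to 4, cell cycle targets lower 0 to 1, metabolic targets lower 2 to 4, mTORC1 list higher 11 to 16, AKT list higher 1 to 3 and lower 3 to 6, CCR4-NOT higher 0 to 1 and lower 0 to 3, stress response higher 1 to 5 and lower 10 to 17, immediate early genes higher 10 to 17, relatives lower 2 to 4, DNA repair targets higher 2 to 3. The signs of the log2 fold changes of Trp53 (0.00), Zmat1 (-0.12) and Zmat2 (0.02) changed: Trp53 was -0.0178 on log2 CPM with TMM factors and -0.0175 by edgeR, and -0.0232 to 0.0383 with a library left out. Zmat2 was -0.0024 on log2 CPM with TMM factors and -0.0450 to 0.135 with a library left out, and Zmat1 -0.435 to 0.0732. Allowing 1 mismatch in a single p53 unit gave 4 genes with a match in place of 2, against 68.5% of genes in the table. Depth limits Eda2r most, with 10 reads over the DMSO libraries.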

Other observations

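The AKT pathway, which Phlda3 restrains, was mixed: of 15 measured genes of 16 listed, 5 fell (33.3%) and 2 rose (13.3%), with a median log2 fold change of -0.19, against 22.9% lower and 23.6% higher over all genes. Phlpp1, a phosphatase that switches AKT off, fell from 60.3 ± 10.7 to 23.0 ± 2.31 normalized counts (mean ± SD of 3 libraries; limma adjusted p = 5.23e-04). Pik3cb, a catalytic subunit of PI3 kinase, rose from 739 ± 49.1 to 1182 ± 185 (limma adjusted p = 5.89e-04). Pdk1, which fell from 1724 ± 94.8 to 854 ± 88.5 (limma adjusted p = 7.60e-06), is in the list by name but encodes pyruvate dehydrogenase kinase; Pdpk1 encodes the activator of AKT and did not pass (limma adjusted p = 0.386). Falls numbered 3 without DMSO library 3, and 1 gene rose without DMSO library 1 or 3.

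The list for the CCR4-NOT deadenylase, through which Btg2 acts, had few calls: of 15 genes, Cnot10 passed by limma. That is 0% higher and 6.67% lower, against 23.6% and 22.9% of all genes. The list also holds Pan2, Pan3, Pabpc1 and Pabpc4, which do not encode subunits of CCR4-NOT. Cnot10 fell from 1165 ± 80.3 to 981 ± 56.8 normalized counts (limma adjusted p = 0.0342). This call was lost when DMSO library 1, DMSO library 3, inhibitor library 2 or inhibitor library 3 was left out. Pan2 (565 ± 65.2 and 450.4 ± 87.3), Cnot8 (1916 ± 61.5 and 2174 ± 110) and Pan3 (3192 ± 337 and 2751 ± 56.6) did not pass (limma adjusted p = 0.0669, 0.0749 and 0.0751). Pan2 passed as a fall with a replicate block (limma adjusted p = 0.0252), without DMSO library 2 (0.0193) and without inhibitor library 3 (0.0178). Pan3 passed as a fall without DMSO library 2 (limma adjusted p = 0.0194), and Cnot8 as a rise without inhibitor library 3 (limma adjusted p = 0.0445).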
